A study of Mus musculus with 16 samples.

Results

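The canonical Wnt genes described here were 9 genes chosen by name, by a rule that uses no measured value, though with earlier results of these data known: the Wnt ligands Wnt3, Wnt3a and Wnt8a, and the beta-catenin targets and feedback genes Axin2, Sp5, Lef1, Tcf7, Nkd1 and Dkk1. They were found by their gene names, checked through RefSeq accessions, among 30153 genes or transcripts named on the array, and they were measured by 13 probes. Of the 9 genes, 8 passed the filter on dim probes and were tested, together with 19658 genes or transcripts in all. Wnt3a, the ligand most used to activate the pathway in culture, did not pass, because its only probe was not well above background on any of the 16 arrays.

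The cells were P19, which grow as mouse embryonal carcinoma in culture. They received a control, a mimic of the microRNA let-7a, siRNA against Sfpq (siSfpq), or let-7a + siSfpq. All 4 conditions share the same parental line, each siRNA or mimic was given at 24 nM per the methods and RNA was taken after 48 h. Sfpq is a nuclear RNA-binding protein, and the series asked how its loss changes what let-7a does to messenger RNA. Each condition had 4 arrays of 1 colour, of which arrays 1 and 2 differed little more than repeated spots of 1 probe and were averaged, leaving 3 samples per condition and 12 in all. The methods state 3 replicate transfections per condition, which is the number of samples left here, but neither they nor the labels say which arrays those are or whether cultures were separate. The p-values then measure only the spread between these samples, which may be technical. What the control transfection contained is not stated for the arrays, and fewer cells of a kind and less RNA per cell cannot be told apart in such bulk RNA.

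In the canonical Wnt pathway, a ligand binds a Frizzled receptor with an Lrp co-receptor, and the complex of Axin, Apc and Gsk3 that marks beta-catenin for destruction is switched off. Beta-catenin then enters the nucleus and activates genes together with the DNA-binding factors of the Tcf and Lef family. Several of the genes it activates act back on the pathway: Axin2 rebuilds the destruction complex, Nkd1 binds Dishevelled, and Dkk1 is secreted and blocks the Lrp co-receptor. In the early embryo the pathway is known for driving the primitive streak and mesoderm, marked by T (Brachyury), and for holding back the neural fate.

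The mature sequence of let-7a is shown because its mimic was transfected, with the seed, bases 2 to 8, in capitals. The promoters of Sp5 and Wnt3 are shown because these genes moved together in the samples, and that of Dkk1 because it was the other called member. Each is the 250 bases before the start site from RefSeq on GRCm38.p6, read 5′ to 3′ on the strand of the gene, and capitals mark a match to CTTTGAA or CTTTGAT, core motifs of Tcf and Lef factors, searched on both strands.
let-7a: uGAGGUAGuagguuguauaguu
Sp5, chr2:70474673-70474922, plus strand: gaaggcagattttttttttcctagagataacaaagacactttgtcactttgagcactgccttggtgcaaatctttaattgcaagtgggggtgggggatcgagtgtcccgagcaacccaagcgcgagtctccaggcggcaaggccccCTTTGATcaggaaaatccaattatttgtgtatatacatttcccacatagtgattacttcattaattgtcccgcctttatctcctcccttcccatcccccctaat
Wnt3, chr11:103773925-103774174, plus strand: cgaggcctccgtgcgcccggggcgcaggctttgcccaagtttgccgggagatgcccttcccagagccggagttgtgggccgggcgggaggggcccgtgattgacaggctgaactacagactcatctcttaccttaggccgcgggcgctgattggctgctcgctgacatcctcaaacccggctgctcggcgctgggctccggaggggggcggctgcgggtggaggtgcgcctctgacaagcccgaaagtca
Dkk1, chr19:30549497-30549746, minus strand: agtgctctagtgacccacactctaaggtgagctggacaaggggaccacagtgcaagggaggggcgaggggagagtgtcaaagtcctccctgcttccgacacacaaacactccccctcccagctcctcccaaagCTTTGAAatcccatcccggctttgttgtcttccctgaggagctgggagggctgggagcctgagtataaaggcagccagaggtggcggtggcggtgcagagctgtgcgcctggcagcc
Windows were searched for 8 of the 9 members, 12 windows in all, and only those of Sp5 and Dkk1 held a match. The Sp5 match, CTTTGAT, covered bases 104 to 98 before the start site, and the Dkk1 match, CTTTGAA, covered bases 117 to 111. Among all 32851 promoter windows of this length, 7.48% held a match, and the missing match in the window of Wnt3 says only that these letters are not in it.

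Between 33733 and 38464 of 59305 spots were well above background on each array. Levels are log2 intensities, quantile normalized between arrays, and differences between them are log2 changes. They compare 1 gene across samples, and not 1 gene with another, since probes differ in brightness. Sfpq itself was at 12.07, 11.98 and 11.98 in the control samples (replicates 1 and 2 averaged, then 3, then 4, an order kept throughout), and at 10.55, 11.46 and 10.62 in siSfpq. It was 11.31, 11.49 and 11.41 in let-7a + siSfpq. Sfpq was thus lower in every siSfpq sample, and within replicate 3 its change was -0.52, against -1.52 and -1.36 in the others. In let-7a + siSfpq the change from control was -0.61 (SE 0.19, limma adjusted p = 0.195), so that the directions given below for this condition rest on a knockdown that did not pass the test. P19 identity was checked on Pou5f1, at 14.62 in control, and Nanog, at 10.13, both well above background on all 4 control arrays.

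Wnt3 and Sp5 gave the largest differences among the 8 tested genes. By their means, both were highest in siSfpq, next in let-7a + siSfpq, then in control, and lowest in let-7a, but neighbours in this order did not pass the test. With the replicate number as a block, a fit given below, some neighbours did. In siSfpq, Wnt3 was 3.90-fold and Sp5 4.31-fold higher than in control. Between let-7a + siSfpq and let-7a, Wnt3 was 3.46-fold and Sp5 3.98-fold higher in the former. Dkk1 was 1.49-fold higher in siSfpq than in control, and in let-7a + siSfpq its change from control was -0.10 (SE 0.17, limma adjusted p = 0.948). Axin2, Nkd1 and Wnt8a were not called in any comparison.

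**Figure D1:**
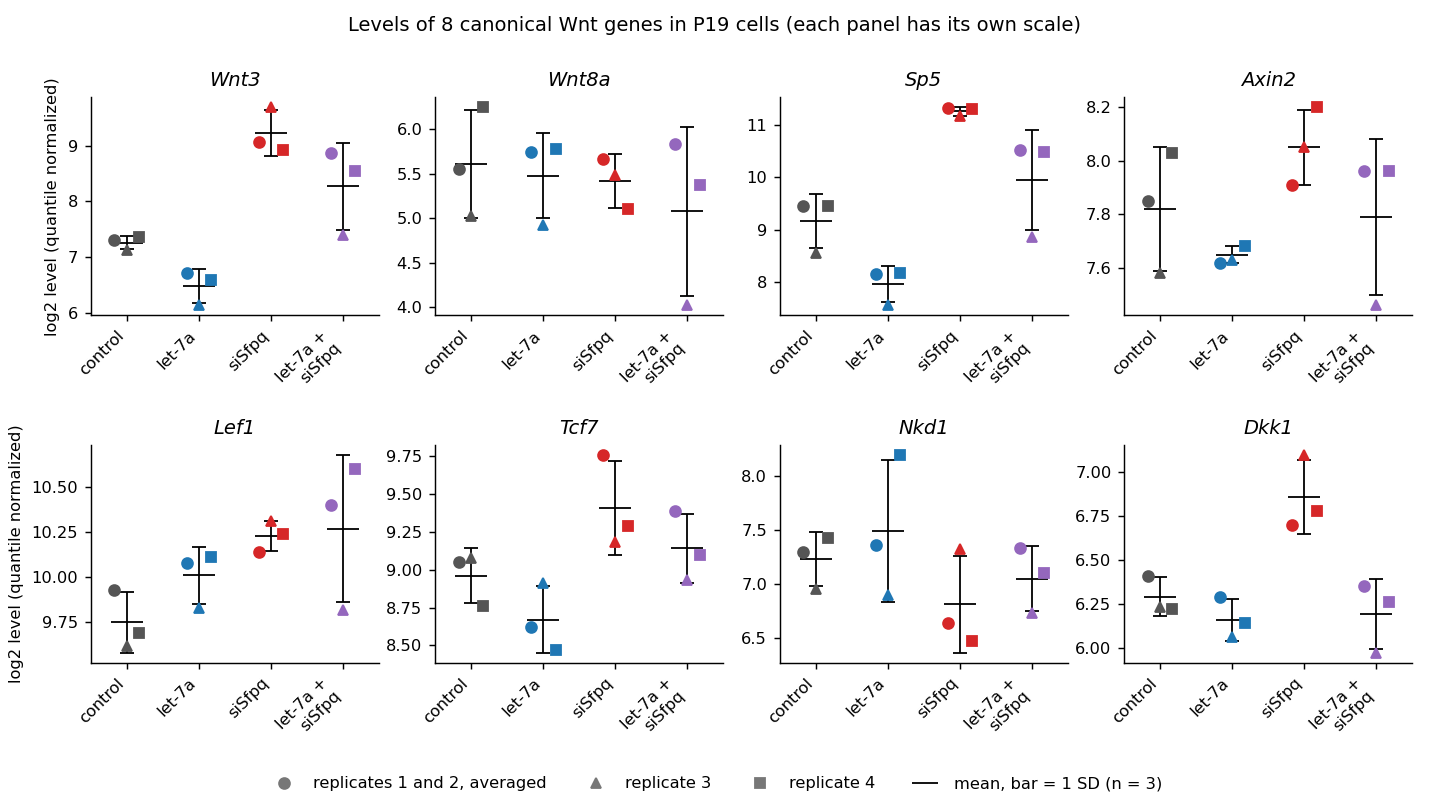
Levels of the 8 tested genes (y axis, log2, quantile normalized, a scale of its own in each panel) in the 4 conditions (x axis). Symbols are the 3 samples of a condition and bars the mean ± 1 SD. The 3 siSfpq samples of Sp5 lie between 11.17 and 11.33, above all control samples, and those of Wnt3 between 8.92 and 9.69.

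Wnt3, a ligand needed in the embryo for the primitive streak, was at 7.31, 7.12 and 7.36 in control and at 6.71, 6.13 and 6.59 in let-7a. It was at 9.07, 9.69 and 8.92 in siSfpq and at 8.87, 7.39 and 8.55 in let-7a + siSfpq. The 3 siSfpq samples lay above all others, the let-7a samples below all others, and replicate 3 of let-7a + siSfpq stood close to the control samples. Against control, the change was 1.96 in siSfpq (SE 0.34, limma adjusted p = 0.00839, higher in 3 of 3 replicates). Against let-7a, the change in let-7a + siSfpq was 1.79 (SE 0.34, limma adjusted p = 0.020), again higher in 3 of 3. The change in let-7a against control, -0.79, did not pass (SE 0.34, limma adjusted p = 0.221), although the groups did not overlap, and neither did the change of 1.01 in let-7a + siSfpq against control (adjusted p = 0.23). The only Wnt3 probe lies at chr11:103679038-103679097 on mm9.

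Sp5, a zinc finger factor of the Sp family and a direct target of beta-catenin, was at 9.46, 8.56 and 9.45 in control and at 8.15, 7.55 and 8.18 in let-7a. It was at 11.33, 11.17 and 11.30 in siSfpq and at 10.53, 8.85 and 10.48 in let-7a + siSfpq. As for Wnt3, siSfpq was above and let-7a below every other sample, and replicate 3 was the lowest sample of its condition in all 4 conditions. The change in siSfpq against control was 2.11 (SE 0.40, limma adjusted p = 0.0115, higher in 3 of 3 replicates). That of let-7a + siSfpq against let-7a was 1.99 (SE 0.40, limma adjusted p = 0.0257, higher in 3 of 3). Let-7a against control gave -1.20 (SE 0.40, limma adjusted p = 0.111), and with the replicate number as a block, a fit that compares samples of the same number, this passed at adjusted p = 0.00781. The Sp5 promoter window is the one printed above with CTTTGAT, and its probe lies at chr2:70315688-70315747 on mm9.

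Dkk1, the secreted inhibitor of the Lrp co-receptor, was at 6.41, 6.23 and 6.22 in control and at 6.70, 7.10 and 6.78 in siSfpq. In let-7a it was at 6.29, 6.06 and 6.14, and in let-7a + siSfpq at 6.35, 5.97 and 6.26. All 3 siSfpq samples lay above the other 9, which overlapped among themselves. The change was 0.57 in siSfpq against control (SE 0.17, limma adjusted p = 0.0498) and -0.67 in let-7a + siSfpq against siSfpq (SE 0.17, limma adjusted p = 0.0364), each in the same direction in 3 of 3 replicates. The first of these lay just inside the threshold and was lost under 8 of 16 other settings. Unlike Sp5 and Wnt3, Dkk1 did not differ detectably between let-7a + siSfpq and let-7a, with a change of 0.03 (SE 0.17, limma adjusted p = 0.974). The only Dkk1 probe lies at chr19:30621424-30621483 on mm9, minus strand.

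The DNA-binding partners of beta-catenin moved less. Lef1 was at 9.93, 9.62 and 9.69 in control, at 10.14, 10.31 and 10.24 in siSfpq, at 10.08, 9.83 and 10.11 in let-7a, and at 10.40, 9.82 and 10.60 in let-7a + siSfpq. Tcf7 was at 9.05, 9.08 and 8.76 in control, at 9.76, 9.18 and 9.29 in siSfpq, at 8.62, 8.91 and 8.47 in let-7a, and at 9.39, 8.93 and 9.10 in let-7a + siSfpq. For both genes the siSfpq samples lay above the control samples, by at least 0.10 within each replicate number. The changes, 0.48 for Lef1 (SE 0.18, limma adjusted p = 0.10) and 0.45 for Tcf7 (SE 0.19, limma adjusted p = 0.135), did not pass. With the replicate block they did, at adjusted p = 0.0307 and 0.0433. In let-7a against control the changes were 0.26 for Lef1 (adjusted p = 0.50) and -0.29 for Tcf7 (adjusted p = 0.446), neither of which passed limma's test. Each gene had 2 probes of different brightness, and both probes of a gene gave siSfpq changes of the same sign, 0.38 and 0.58 for Lef1 and 0.44 and 0.45 for Tcf7.

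Axin2, the target most often read as a sign of pathway activity, was at 7.85, 7.58 and 8.03 in control and at 7.91, 8.05 and 8.20 in siSfpq. It was at 7.62, 7.63 and 7.68 in let-7a and at 7.96, 7.46 and 7.96 in let-7a + siSfpq. These ranges overlapped in each of the 5 comparisons of 2 conditions. The change in siSfpq against control was 0.24 (SE 0.17, limma adjusted p = 0.397), and the other changes lay between -0.26 and 0.15. The 2 Axin2 probes did not give the same values: the brighter, at chr11:108812034-108812093 on mm9, read 9.02 to 9.58 in control and changed by 0.01 in let-7a + siSfpq against siSfpq. The dimmer, at chr11:108803927-108803986, read 6.13 to 6.47 in control and changed by -0.53 in the same comparison (SE 0.24).

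Nkd1, a feedback inhibitor that acts on Dishevelled, was at 7.30, 6.95 and 7.43 in control and at 6.64, 7.32 and 6.47 in siSfpq. It was at 7.36, 6.90 and 8.20 in let-7a and at 7.33, 6.73 and 7.10 in let-7a + siSfpq. Replicate 3 of siSfpq was above its control sample by 0.37, whereas the other replicates were below theirs, by changes of -0.67 and -0.97. The mean change of -0.42 did not pass (SE 0.32, limma adjusted p = 0.428), while without replicate 3 it was -0.82 (adjusted p = 0.0321). Its dimmer probe was well above background on 3 of the 4 siSfpq arrays, and its sample of replicate 4 in let-7a, at 7.06, stood above the other 2 at 5.36 and 5.06. Wnt8a, a ligand of the early primitive streak, was at 5.55, 5.03 and 6.25 in control, at 5.75, 4.92 and 5.78 in let-7a, at 5.67, 5.49 and 5.10 in siSfpq, and at 5.84, 4.02 and 5.37 in let-7a + siSfpq. Its groups overlapped in every comparison, and its 5 changes between conditions, from -0.53 to -0.13, were each close to or smaller than their SE of 0.46. For Wnt3a the levels lay between 1.66 and 2.78 with no probe above background, and no fold was computed.

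**Figure D2:**
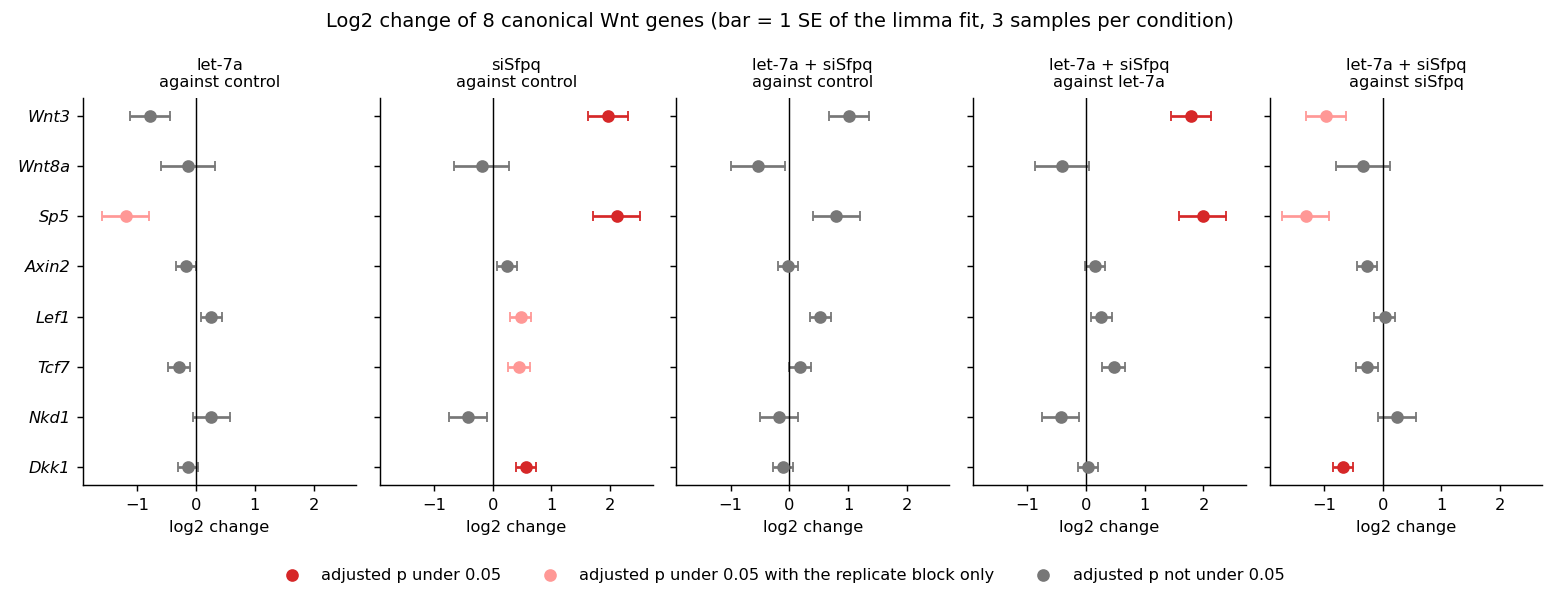
Log2 change (x axis) of the 8 tested genes (y axis) in the 5 comparisons of 2 conditions. Points are fitted changes, bars 1 SE, dark red points passed an adjusted p of 0.05 and pale red points did so with the replicate block only. Sp5 and Wnt3 stand farthest to the right in siSfpq against control, at 2.11 and 1.96, and Axin2 lies near 0 in every panel.

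Across the comparisons, the counts were read against the share of all 19658 tested genes that were called in the same direction. In siSfpq against control, 3 of the 8 members were called higher, where 5.74% of all genes were, and none were called lower, where 6.76% were. With the replicate block 5 were called higher, namely Sp5, Wnt3, Dkk1, Lef1 and Tcf7, with 17.8% of all genes. The same 5 members had siSfpq samples wholly above the control samples, against 15% of all genes. The median change of the members was 0.46, and that of all genes 0.0068. In let-7a against control, no member was called higher or lower, where 4.48% and 1.81% of all genes were, and 6 of 8 changes were below 0. At an unadjusted p under 0.05, Sp5 and Wnt3 passed limma's test in that comparison, 2 of 8 where 19.8% of all genes did. They were also the 2 members whose groups did not overlap, where 14.1% of all genes lay wholly lower. With the block, Sp5 was the 1 member called lower, with 9.9% of all genes.

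In let-7a + siSfpq against let-7a, Sp5 and Wnt3 were called higher, 2 of 8, where 0.809% of all genes were, and none were called lower, where 2.01% were. With Tcf7, they were the 3 members whose groups lay wholly higher there, against 10.7% of all genes. In let-7a + siSfpq against siSfpq, Dkk1 was the 1 member called lower, where 3.7% of all genes were, and none were called higher, where 5.59% were. With the block Sp5 and Wnt3 were also lower in that comparison, by changes of -1.31 (adjusted p = 0.00602) and -0.96 (adjusted p = 0.0435), against 15.4% of all genes, and Sp5, Wnt3 and Dkk1 were the 3 members whose groups did not overlap, against 12.3%. In let-7a + siSfpq against control, no member was called in limma, where 1.12% of all genes were higher and 0.203% lower. At an unadjusted p under 0.05, Wnt3 and Lef1 passed there, 2 of 8 where 11.2% of all genes did. Comparisons that share a condition share its samples, and their values are not independent of one another.

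Whether siSfpq acted differently with and without let-7a was tested as an interaction. No member was called in limma, and neither was any other gene (0% of all), although 1185 of the 19658 genes (6.03%) had an unadjusted p under 0.05. Among the members, only Dkk1 had one, with -0.54 (SE 0.24, limma adjusted p = 0.828), below 0 in 3 of 3 replicates. For Sp5 the interaction was -0.12 (SE 0.57) and for Wnt3 -0.17 (SE 0.48). In both genes replicate 3 gave -1.31, whereas the other replicates gave 0.51 and 0.45 for Sp5 and 0.40 and 0.40 for Wnt3.

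**Figure D3:**
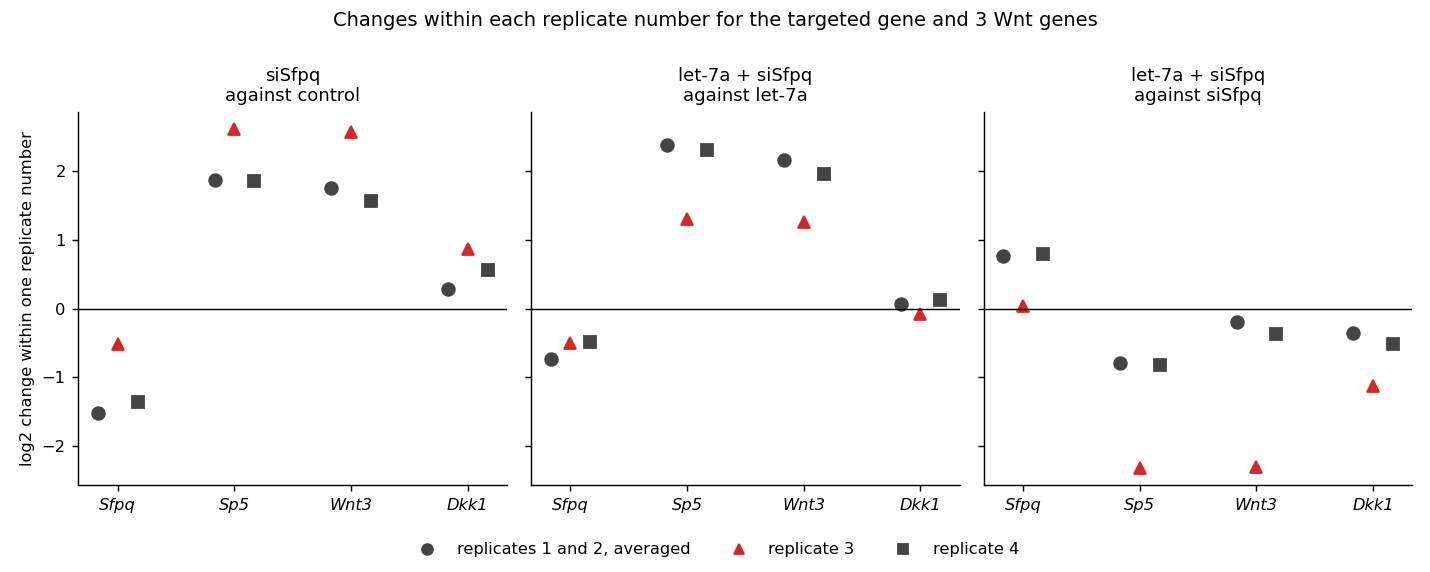
Log2 change within each replicate number (y axis) of Sfpq and of the 3 called members (x axis) in 3 comparisons. Red triangles are replicate 3. In siSfpq against control, replicate 3 had the smallest change of Sfpq, -0.52, and the largest changes of Sp5 and Wnt3, 2.61 and 2.57, and in let-7a + siSfpq against siSfpq it had changes of -2.32 and -2.30 for these 2 genes.

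Replicate 3 thus stood apart for the members, and its effect on the calls was large. In siSfpq against control, Sp5 changed by 1.87, 2.61 and 1.85 and Wnt3 by 1.76, 2.57 and 1.56, so replicate 3 had the largest change of both genes and the smallest change of Sfpq. In let-7a + siSfpq against siSfpq, Sp5 changed by -0.80, -2.32 and -0.82 and Wnt3 by -0.20, -2.30 and -0.37, while Sfpq changed by 0.76, 0.03 and 0.79. The part of the knockdown in these differences was not tested. Without replicate 3, 6 members were called in siSfpq against control, where 47.2% of all genes were called in either direction: Sp5, Wnt3, Dkk1, Lef1 and Tcf7 higher and Nkd1 lower. Leaving it out, 2 were called in let-7a against control (28.1% of all genes), 3 in let-7a + siSfpq against control (16.8%), 4 against let-7a (24.8%) and 3 against siSfpq (45.4%). The last 3 were Sp5 and Dkk1, lower, and Lef1, higher at 0.31 (limma adjusted p = 0.0433), while Wnt3 was then at -0.28 (adjusted p = 0.109). In the interaction, Sp5 was the 1 member called without it, with a change of 0.48 (adjusted p = 0.00752), where 20.8% of all genes were called. Without replicate 4, or without replicates 1 and 2, no member was called in any of these comparisons, while the changes of Sp5 and Wnt3 in siSfpq against control were 2.24 and 2.17, or 2.23 and 2.07, in a design in which 0 genes of all passed. Replicates 1 and 2 were on 1 slide and replicates 3 and 4 on the other. With the slide as a block, Sp5, Wnt3 and Dkk1 were again called in siSfpq against control, at adjusted p = 0.0115, 0.00953 and 0.0414, where 15.3% of all genes were called.

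Among themselves the members fell apart into those that followed Sp5 and those that did not. Over the 12 samples, which share their arrays and normalization, the level of Sp5 correlated with that of Wnt3 at r = 0.97, with Axin2 at 0.82, with Dkk1 at 0.79, with Tcf7 at 0.78 and with Lef1 at 0.61. With Wnt8a it was 0.20 and with Nkd1 -0.37, as a description with no test. Members left aside, the genes whose levels were most like those of Sp5, out of 17609 well above background on all arrays, were Rbms1 (r = 0.965), the receptor gene Flt1 (0.964) and Sp8 (0.961), a factor of the same Sp family. For Wnt3 they were Gad1 (0.979), which encodes an enzyme of GABA synthesis, the homeobox gene Cdx1 (0.946) and again Rbms1 (0.93). For Tcf7 they were Optn (0.963), Adsl (0.949) and Col6a5 (0.948), for Dkk1 Lmo2 (0.931), Cidea (0.919) and Flt3 (0.866), and for Lef1 Psme2b (0.931), Rnf128 (0.89) and Aifm3 (0.888). Axin2 was most like Ppp1r13b (0.907), followed by a probe with no gene name and Sox10 (0.875), Nkd1 was most like 2 unnamed transcripts and Col20a1 (0.872), and Wnt8a most like Sulf1 (0.88), Anapc5 (0.864) and Ubn2 (0.852).

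The rest of the pathway was given by 94 other genes in 6 lists, of which 79 were tested. In siSfpq against control, 13 of the 79 were called higher and 9 lower, where 5.74% and 6.76% of all genes were, and the median change was -0.025. With the replicate block, 23 were higher and 28 lower, where 17.8% and 19.1% of all genes were. Among 10 tested other targets of beta-catenin, 6 were called higher and 0 lower, and the median change was 1.30. Cdx2 and Evx1 passed the filter only through siSfpq, where they were high, and without them 4 of 8 were called higher, with a median of 1.03. Called among these were T, the mesoderm factor, at 1.91 (SE 0.36, limma adjusted p = 0.0115), and Cdx1, at 1.53 (SE 0.22, adjusted p = 0.00582). T was at 10.28, 9.84 and 10.36 in control and at 12.29, 11.35 and 12.56 in siSfpq, with no overlap. Cdx2, a homeobox gene of the posterior embryo, was not well above background on any control array and was at least 3.81-fold higher in siSfpq, at 5.78, 4.19 and 7.13 against a floor of 3.77 in control. Evx1, another such gene, was above background on 1 of the 4 control arrays and on all 4 siSfpq arrays, at 6.68, 4.79 and 6.67, and no fold is given. With the replicate block, 7 of the 10 were called higher and 0 lower, where 17.8% and 19.1% of all genes were. Without replicate 3, 8 of the 10 were called higher, where 47.2% of all genes were called in either direction. Without replicate 4 none were, nor was any other gene, and the median of the 10 was 1.20. These figures still include Cdx2 and Evx1 and were not recomputed without them.

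In let-7a against control, 4 of the 10 were called lower and 0 higher, where 1.81% and 4.48% of all genes were, with a median change of -0.77. Without replicate 3, 8 of the 10 were called lower, where 28.1% of all genes were called in either direction. The 10 include Cdx2, not well above background on any control or let-7a array, and Evx1, above it on 1 array of each. Without replicate 4 none were, with 0.0102% of all genes, and the median was -0.70. The 4 called in the fit of all samples were T (-2.29, SE 0.36, limma adjusted p = 0.00404), Fgf8 (-1.53, SE 0.21, adjusted p = 0.00213), a growth factor of the streak, Myc (-0.92, adjusted p = 0.0124) and Tnfrsf19 (-0.47, adjusted p = 0.0372). T in let-7a was at 7.75, 8.02 and 7.84, below every control sample. Against let-7a, 4 were called higher in let-7a + siSfpq, where 0.809% of all genes were: T at 1.81, Cdx1 at 1.44, Fgf8 at 1.01 and Sp8 at 0.73. Without replicate 3, 8 of the 10 were called higher there, where 24.8% of all genes were called in either direction, and without replicate 4 none were. Against siSfpq, 6 were called lower in it (5 of 8 without Cdx2 and Evx1), where 3.7% of all genes were, among them T (-2.39) and Fgf8 (-1.80), the latter 3.48-fold. Against control, 1 was called higher in let-7a + siSfpq, where 1.12% of all genes were, Cdx1, at 1.01 (SE 0.22, limma adjusted p = 0.0492). No target was called in the interaction. With the replicate block, 6 of the 10 were called lower in let-7a against control, where 9.9% of all genes were. In let-7a + siSfpq, 8 were then called lower against siSfpq, where 15.4% of all genes were. Against control, 1 was called higher and 1 lower, where 4.93% and 2.58% of all genes were.

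**Figure D4:**
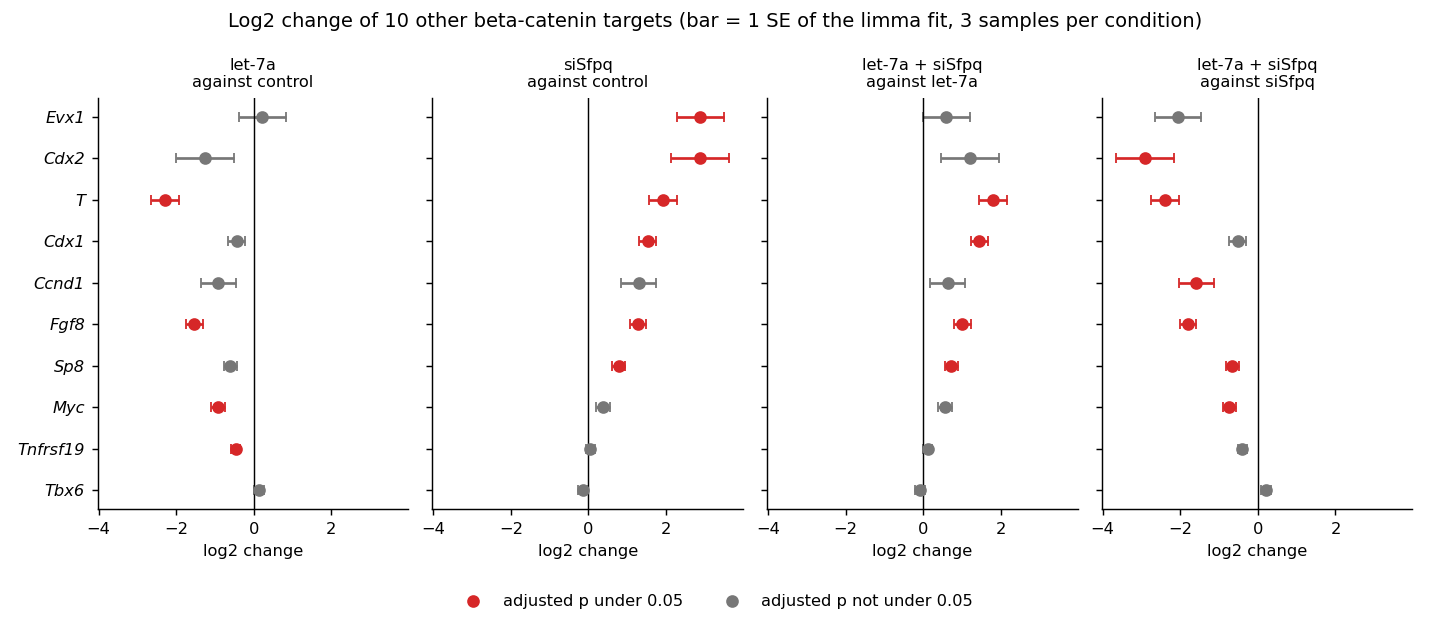
Log2 change (x axis) of 10 other beta-catenin targets (y axis, ordered by their change in siSfpq against control) in 4 comparisons. Points are fitted changes, bars 1 SE, and red points passed an adjusted p of 0.05. In siSfpq against control, 6 red points lie to the right of 0, and in let-7a against control 4 lie to the left. The points of Cdx2 and Evx1 rest in part on signals not above background.

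The list of other ligands had 12 tested genes, among them Porcn and Wls, which serve the secretion of ligands. In siSfpq against control, 2 were called higher and 0 lower, where 5.74% and 6.76% of all genes were: Wnt11, a ligand known mainly for beta-catenin-independent signalling, at 1.57 (SE 0.38, limma adjusted p = 0.0243), and Wnt6, 2.01-fold higher (adjusted p = 0.0279). With the replicate block, 3 of the 12 were called higher and 4 lower, where 17.8% and 19.1% of all genes were. Wnt11 changed by 2.23, 0.24 and 2.24, again with replicate 3 apart, here as the smallest. Between let-7a + siSfpq and let-7a, Wnt6 was also higher in the former, at 1.52 (SE 0.25, adjusted p = 0.0141), while Wnt5a changed by 0.53 in let-7a against control (adjusted p = 0.0372) and by -0.57 in let-7a + siSfpq against let-7a (adjusted p = 0.0442). Wnt11 was the 1 ligand called in let-7a + siSfpq against siSfpq, lower with -1.49 (adjusted p = 0.035), where 3.7% of all genes were called lower. None was called in let-7a + siSfpq against control, where 1.12% of all genes were called higher and 0.203% lower. With the block, 1 was called higher there, Wnt6 at 1.02 (adjusted p = 0.0346), and 1 lower, Wnt7a at -0.56 (adjusted p = 0.0177). Of all genes, 4.93% were then called higher and 2.58% lower.

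Of 22 tested receptors and genes of the R-spondin axis, 2 were called higher in siSfpq against control, the R-spondin receptor Lgr5 (0.77, limma adjusted p = 0.0394) and Rnf43 (0.55, adjusted p = 0.0187), a ubiquitin ligase that removes Frizzled from the membrane. The 2 called lower were the receptor Fzd2 (-1.16, adjusted p = 0.0138) and the ligand Rspo3 (-0.61, adjusted p = 0.0454). Of all genes, 5.74% were called higher and 6.76% lower. With the block, 4 of the 22 were called higher and 9 lower, where 17.8% and 19.1% of all genes were. Lgr5, itself a known target of the pathway, was also higher in let-7a + siSfpq than in control, at 1.38 (SE 0.21, limma adjusted p = 0.0118), and than in let-7a, at 1.16 (adjusted p = 0.0184). Rspo3 was lower in all 3 conditions than in control, by changes of -0.99 in let-7a (adjusted p = 0.00744) and -0.84 in let-7a + siSfpq (adjusted p = 0.0444). In let-7a, Fzd10 (-0.59, adjusted p = 0.039) and Ror2 (-0.45, adjusted p = 0.0358) were also lower.

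Secreted inhibitors, the group to which Dkk1 belongs by function, went both ways in siSfpq against control. Of 11 tested, 3 were called higher and 4 lower, where 5.74% and 6.76% of all genes were. The largest fitted changes were those of Dkk4 at 2.17 (SE 0.45, limma adjusted p = 0.0152), Frzb at -1.78 (SE 0.45, adjusted p = 0.0291), Wif1 at 1.23 (adjusted p = 0.0464) and Sfrp1 at -0.93 (adjusted p = 0.015). Frzb was well above background on 1 of the 4 siSfpq arrays, so its change rests in part on a dim signal. Frzb, Sfrp1 and Wif1 encode secreted proteins that bind Wnt ligands. Dkk4 was above background on 3 of 4 control arrays and on none in let-7a, and in let-7a + siSfpq it was at least 2.06-fold higher than in let-7a. In the cytoplasm, 2 of 13 tested genes were called lower and 0 higher in siSfpq, Gsk3b (-0.61, adjusted p = 0.0306) and Btrc (-0.54, adjusted p = 0.038), both parts of the machinery that degrades beta-catenin. With the block, 5 of the 13 were called higher and 4 lower, where 17.8% and 19.1% of all genes were. Ctnnb1, the gene of beta-catenin itself, had mean levels of 14.03 in control and 13.71 in siSfpq, a change of -0.32 (limma adjusted p = 0.134) that was called lower with the block (adjusted p = 0.0159). In the nucleus, 1 of 11 was called lower in siSfpq, where 6.76% of all genes were. With the block, 1 was called higher and 6 lower, where 17.8% and 19.1% of all genes were. The 1 called without the block was Tcf7l1, a Tcf factor that mostly represses, at -1.13 in siSfpq (SE 0.27, limma adjusted p = 0.0234), and Tcf7l2 was lower in let-7a + siSfpq than in control (-0.67, adjusted p = 0.0444).

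Markers of cell types were measured beside the members. Of 8 genes of neurons, 6 were called lower in siSfpq against control, where 6.76% of all genes were, with a median change of -1.10. In let-7a against control, 7 were called higher, where 4.48% of all genes were, with a median of 1.70. Without replicate 4 none of the 8 was called in either comparison, where 0% and 0.0102% of all genes were, with medians of -0.96 and 1.70. Neurod1, a defining factor of neurons, was not well above background on any siSfpq array and was at 3.88 in control and 6.63 in let-7a. The floor of the siSfpq arrays was 3.99, so its call as lower in siSfpq rests on dim signals. The summed level of the 8 ran from 15.03 to 15.08 in control, 13.68 to 14.59 in siSfpq, 15.46 to 15.73 in let-7a and 14.45 to 14.79 in let-7a + siSfpq. In siSfpq, 0 of 5 tested genes of endoderm and other mesendoderm were called and Sox17 did not pass the filter. With the block, 2 of the 5 were called higher, where 17.8% of all genes were, namely Foxa2 and Gata4, and all 5 changes were above 0. Foxa2 and Gata4 passed the filter only through siSfpq, where they were highest, so the filter favoured these calls. The summed level of the 5 was 10.05 to 10.14 against 9.46 to 9.73 in control. That of 4 fibroblast genes was 9.81 to 10.36 against 10.22 to 10.42, with 1 called higher (1 higher and 2 lower with the block), where 5.74% of all genes were, and that of 7 pluripotency genes was 16.21 to 16.37 against 15.96 to 16.18, with 2 called higher and 1 lower, where 5.74% and 6.76% of all genes were. In let-7a, the summed level of the pluripotency genes was 15.35 to 15.83, below all control samples, with 3 of 7 called lower, where 1.81% of all genes were. These were Lin28a (-0.77), itself a known target of let-7a, Utf1 (-0.70) and Nanog (-0.58). Tdgf1 (-0.75), Fgf4 (-0.37), Pou5f1 (-0.15) and Sox2 (0.12) were not called. The summed level of the fibroblast genes in let-7a was 10.74 to 10.97, above all control samples, with 1 of 4 called higher, where 4.48% of all genes were. That of the endoderm and mesendoderm genes was 8.93 to 9.49, with 1 of 5 called lower, where 1.81% of all genes were. Gata6 of that list was at 8.46, 7.35 and 8.57 in let-7a and 6.95, 6.57 and 7.03 in control, and was called higher with the block only. The part of a change in cell state in the levels of Wnt3, Sp5 and the other targets was not tested.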

How the data were processed

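RNA of P19 cells in 4 conditions was hybridised to 16 Agilent arrays of 1 colour. The deposited scanner files, per the file headers, hold processed signal intensity per spot, with background already subtracted by the authors' scanner software. A deposited table holds the authors' log2 values, quantile normalized, and served as an alternative. Here log2 processed signals were quantile normalized and fitted with limma 3.58.1 (R 4.3.3, with the package data.table, version 1.17.8), all 4 conditions in 1 fit with an intensity trend, and Benjamini-Hochberg adjustment over all 19658 genes tested. A call is an adjusted p under 0.05. The fit was tested on simulated data. Figures and sequences were handled in python 3.11.15 with pandas 2.3.3, numpy 2.4.6 and matplotlib 3.10.9.

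Control spots and 54 probes lacking a value were dropped. Repeated spots were averaged by probe, then probes by gene. A probe had to be well above background on the 4 arrays of some condition. Of 55681 probes, 28026 were named through a RefSeq accession, 16194 had only a genomic region and 11461 kept the name in the file. Arrays 1 and 2 of a condition differed with an SD of 0.0697 to 0.0862, close to spots of 1 probe (0.0598 to 0.0695) and below other arrays (0.137 to 0.417), and were counted as 1 sample. The number of samples, 3 per condition, limits the precision. An exact permutation test of 3 against 3 samples, two-sided, cannot go below p = 0.1. A fold given as "at least" sets the brighter condition against the lowest signal well above background on the dimmer arrays, or the dim signal where that was higher.

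Same-numbered samples of different conditions deviated together in all 18 pairs (r 0.292 to 0.713, against -0.627 to 0.183 for different numbers), and 12 of 12 samples were closest to one of their own number, so the numbers were taken to pair the samples, from the data and not from a label. The summed level of a marker list is the log2 of its summed linear levels. Named were all 9 members, at most 4 called genes per pathway list and comparison by size of change, and the 3 genes most correlated with each member. The members, lists and tests were chosen with earlier results of these data known. Alternatives were another scaling, background correction, filter, probe choice, trend, blocks for replicate and slide, arrays 1 and 2 counted separately, only the groups compared, the authors' values, and each replicate left out. The counts of the pathway lists without replicates 3 and 4, and of the targets without Cdx2 and Evx1, were added after seeing the data.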

Additional observations from a re-analysis of the deposited data

How the results depend on the processing

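Of 760 recomputed values of single members under 16 alternatives, 666 kept their direction and side of the threshold, 28 lost and 29 gained a call, and 37 changed sign. The cause of these changes was not tested. With the replicate block, 1 member was called in let-7a against control in place of 0, 5 in siSfpq against control in place of 3, and 3 in let-7a + siSfpq against siSfpq in place of 1; the block changed no other count of called members. With arrays 1 and 2 counted separately, which counts near-copies as samples, these counts were 1, 5 and 3, and 2 in let-7a + siSfpq against control in place of 0, where 18.7%, 34.7%, 31.1% and 7.18% of all genes were called. With only the groups compared, which leaves fewer samples, 2 members were called in let-7a against control and 0 in siSfpq against control, in let-7a + siSfpq against let-7a (2 in the fit of all groups) and against siSfpq. Sp5 and Wnt3 in siSfpq then had an adjusted p of 0.0573. In that setting 8.12% of all genes were called in let-7a against control and 0 in siSfpq against control, so the latter 0 says nothing of the members. In let-7a + siSfpq, 2.33% of all genes were called there against let-7a and 1.01% against siSfpq. With no filter, 0 were called in let-7a + siSfpq against let-7a and against siSfpq, where 0.87% and 2.86% of all genes were, and with the slide block 2 in the latter, with 12% of all genes. Without replicates 1 and 2, the second slide alone, 0 were called in siSfpq against control and in both of these. Leaving out 1 replicate at a time gave 0 to 2 members in let-7a against control, 0 to 6 in siSfpq against control, 0 to 3 in let-7a + siSfpq against control, 0 to 4 against let-7a, 0 to 3 against siSfpq and 0 to 1 in the interaction, with 0 without replicate 4 and the highest count without replicate 3.

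The changes of sign concerned values with no call in the fit of all samples. In let-7a + siSfpq against control, Axin2 was 0.01 with normexp and with arrays 1 and 2 separate, 0.02 with the authors' values, 0.11 with the brightest probe, and -0.09 to 0.02 over the left-out replicates (1 at a time, or 1 and 2 together, also below), and Nkd1 was 0.08 with the strict filter and the brightest probe. Dkk1 against let-7a was -0.01 with the 75th percentile and the authors' values and -0.01 to 0.09 over left-out replicates. Against siSfpq, Axin2 was 0.01 with the brightest probe, Lef1 was -0.03 with the 75th percentile, -0.06 without replicates 1 and 2, -0.20 with the brightest probe and -0.12 to 0.31 over left-out replicates, and Wnt8a was -0.65 to 0.22. Over left-out replicates, Wnt8a was -0.29 to 0.04 in let-7a and -0.51 to 0.29 in siSfpq against control. In the interaction, Axin2 was 0.23 and Tcf7 -0.07 with the brightest probe, Sp5 was 0.04 with arrays 1 and 2 separate, Tcf7 was -0.01 with the 75th percentile and -0.03 with normexp, and Nkd1 was 0.03 with the 75th percentile, 0.13 with the strict filter and the brightest probe, and 0.15 with arrays 1 and 2 separate. Over left-out replicates the interaction ranged from -0.27 to 0.19 for Axin2, -0.38 to 0.03 for Lef1, -0.33 to 0.25 for Nkd1, -0.43 to 0.48 for Sp5, -0.01 to 0.08 for Tcf7, -0.46 to 0.40 for Wnt3 and -0.70 to 0.36 for Wnt8a. Low signal limits Wnt3a, Cdx2, Evx1, Frzb, Dkk4, Foxa2, Gata4 and Neurod1.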
